A study of Mus musculus with 6 samples.

Results

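Expression of myelin and mature oligodendrocyte genes was examined in the brain without its cerebellum of Gb5-deficient mice (Gb5ko, 3 arrays) and of wild-type mice (Gb5wt, 3 arrays). Gb5 is the G protein beta subunit encoded by Gnb5. The set is a list of 31 gene names, and 29 of them were read by at least 1 probe set annotated to that gene alone, out of 18193 genes read in this way. These 29 genes had 68 probe sets, out of 45037 tested. Trf, the iron carrier transferrin, was annotated only on a probe set shared with Srprb, and Enpp2, the lysophospholipase autotaxin, had no probe set of its own in the annotation used, so neither was analysed here. Mean levels of the 29 genes, each at its brightest probe set, ran from 5.69 for Nkx6-2 to 13.5 for Mbp. The median of all probe sets, the dimmer ones of each gene included, was 5.83. At their brightest probe sets, all 18193 genes averaged 7.16 to 7.21 in the Gb5ko arrays and 7.14 in the Gb5wt arrays.

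Each array held total RNA labelled with biotin from 6 ug, and per the labels the cohorts were littermates of matched age and sex. The sources used here do not give the allele behind the deficiency, nor the strain, age or sex of any animal. The series design calls the 3 samples of each genotype biological replicates. Xist, which is transcribed in females, read 10.66, 8.31 and 10.63 in the Gb5ko arrays, against 4.96, 10.81 and 10.70 in the Gb5wt arrays. The Y-linked Eif2s3y read 2.96, 11.28 and 6.97 in the Gb5ko arrays, against 11.26, 6.05 and 4.05 in the Gb5wt arrays. The Y-linked Kdm5d read 2.86, 6.8 and 3.08 in the Gb5ko arrays, against 7.21, 2.97 and 2.59 in the Gb5wt arrays. Arrays of 1 group thus differed in sex-linked transcripts. Gb5ko replicate 2 was high for Xist and for both Y-linked genes. Gb5ko replicate 3 and Gb5wt replicate 5 were high for Xist, with Eif2s3y at 6.97 and 6.05. The reason for these readings was not tested. Without Gb5ko replicate 2 the median difference was -0.16 over structural genes and -0.33 over lipid enzymes. Gnb5 itself read 3.67, 3.00 and 3.56 in the Gb5ko arrays, against 8.79, 8.98 and 9.30 in the Gb5wt arrays. Array medians lay between 5.81 and 5.85, and Pearson correlations across probe sets between arrays, as a description, ran from 0.989 to 0.996. All levels below are deposited log2 values, and every difference is Gb5ko minus Gb5wt on that scale with the standard error (SE) of a limma fit.

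Oligodendrocytes wrap axons of the central nervous system in myelin, a stack of membrane rich in galactolipids and cholesterol. A few abundant proteins hold the membrane faces together, and enzymes of the same cells make the lipids. The transcription factor Sox10 acts throughout the lineage. In bulk tissue, fewer oligodendrocytes and less of a transcript per oligodendrocyte cannot be told apart. Several members, such as Gsn, Car2, Cryab, Apod, Ndrg1 and Qdpr, are also used by other cells of the brain.

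No myelin gene passed the test over all probe sets, but most structural and lipid genes read lower in the Gb5ko arrays than in the Gb5wt arrays. Of the 11 structural genes 10 had a negative difference, with a median of -0.20, and all 4 measured lipid enzyme genes did, with a median of -0.39. The 14 other members had a median of -0.01, with 8 negative and 6 positive. Over all 18193 genes, each read by its brightest probe set, the median was 0.05, with 7302 negative. Arrays of the same group differed by as much as the groups did. Of the 6 arrays, Gb5ko replicate 1 was the lowest in 14 of the 15 structural and lipid genes, against 20.2% of all genes. Over all genes that array was the highest of the 6 in 35%, more than any other array. Gb5wt replicate 6 was the highest in 14 of the 15, against 9.02% of all genes.

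In limma with Benjamini-Hochberg adjustment over all probe sets, 0 of the 68 member probe sets passed an adjusted p under 0.05, where 0.0266% of all probe sets did. At an unadjusted p under 0.05, 10 of the 68 (14.7%) were lower in Gb5ko, against 6.33% of all probe sets, and 0 were higher, against 8.09%. These 10 probe sets belonged to Cldn11, Ermn, Mobp, Tspan2, Ugt8a, Bcas1, Ndrg1 and Gsn. Every Gb5ko array lay below every Gb5wt array at 8 member probe sets (11.8%), against 8.95% of all probe sets, and above at 2 (2.94%), against 12.5%. Of the 68 probe sets 49 (72.1%) had a negative difference, against 44.5% of all. The count of 10 depended on single arrays. It was 3 without Gb5ko replicate 1, 5 without Gb5ko replicate 2 and 23 without Gb5ko replicate 3. It was 19 without Gb5wt replicate 5 and 4 without Gb5wt replicate 6, while 4.47% to 6.65% of all probe sets were lower at that level in these 5 fits.

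**Figure D1:**
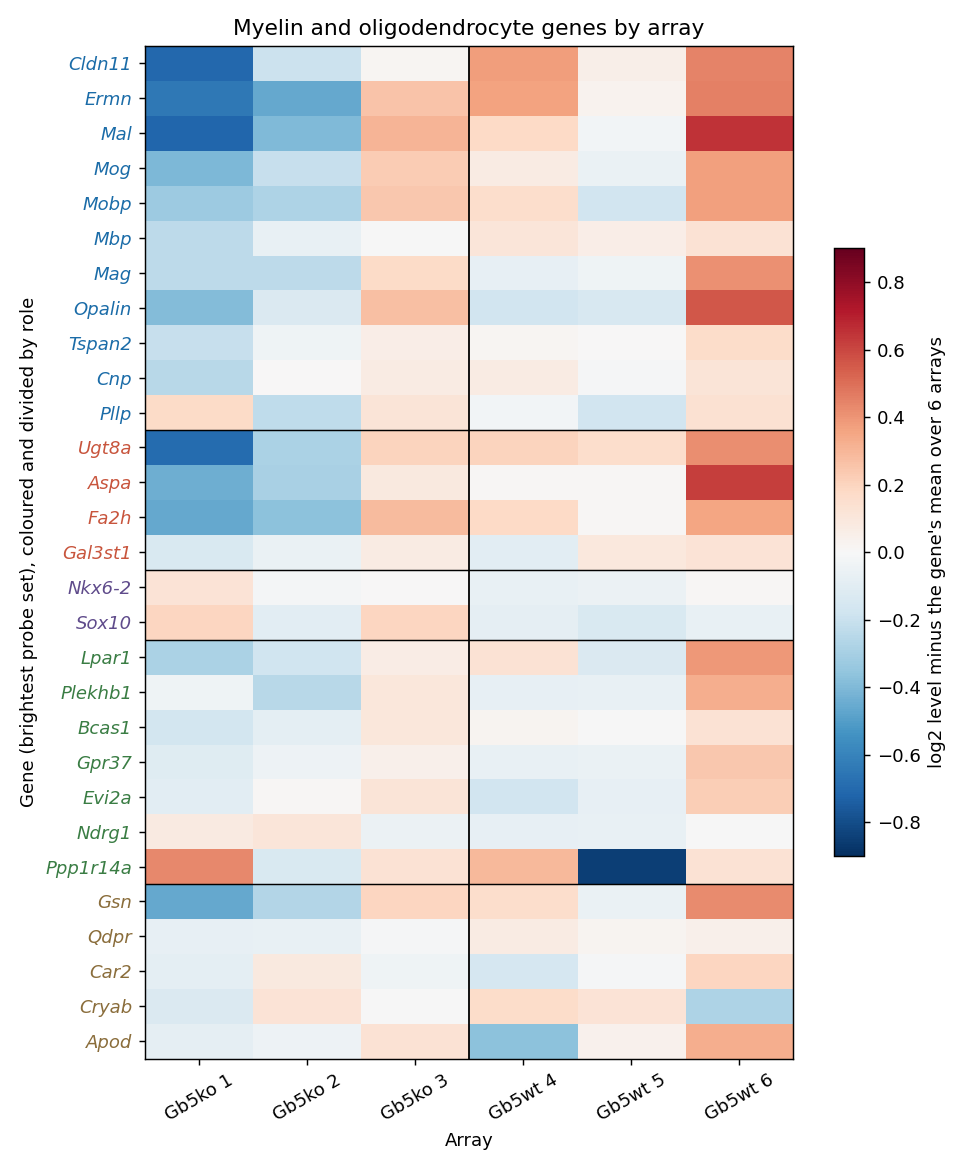
Level of each of the 29 measured members in each array, as the log2 value of its brightest probe set minus the mean over the 6 arrays, with Gb5ko arrays at the left and Gb5wt arrays at the right. Rows are grouped by role and sorted by the difference, and Gb5ko replicate 1 and Gb5wt replicate 6 stand at opposite ends for most structural and lipid genes.

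Among structural genes, Cldn11 had the smallest p. It encodes a tight-junction claudin that seals the myelin layers. Cldn11 read 9.99, 10.50 and 10.71 in the Gb5ko arrays, against 11.07, 10.75 and 11.14 in the Gb5wt arrays. The groups did not overlap, though the highest Gb5ko and the lowest Gb5wt array nearly met. Cldn11 averaged 10.40 ± 0.371 in Gb5ko and 10.99 ± 0.211 in Gb5wt (SD, n = 3 each), a difference of -0.59 ± 0.187 (SE), or 1.5-fold lower (limma adjusted p = 0.256). Leaving out 1 array at a time moved it between -0.74 and -0.38.

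Ermn, for ermin, a cytoskeletal protein of late oligodendrocytes, read 8.09, 8.27 and 8.99 in the Gb5ko arrays, against 9.09, 8.76 and 9.19 in the Gb5wt arrays. Gb5ko replicate 3 lay inside the wild-type range, and the other Gb5ko arrays lay below it. The difference was -0.56 ± 0.221 (limma adjusted p = 0.302), and the dimmer Ermn probe set gave -0.81 ± 0.271 (limma adjusted p = 0.264).

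Mal, a proteolipid of myelin membrane domains, read 9.98, 10.29 and 11.00 in the Gb5ko arrays, against 10.87, 10.67 and 11.34 in the Gb5wt arrays. Its highest Gb5ko array exceeded 2 of the 3 Gb5wt arrays. The Mal difference was -0.54 ± 0.257 (limma adjusted p = 0.372), and its other probe set gave -0.34.

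Mbp, for the myelin basic protein that compacts the cytoplasmic faces of the membrane, was measured by 8 probe sets. The brightest read 13.26, 13.43 and 13.49 in the Gb5ko arrays, against 13.60, 13.55 and 13.62 in the Gb5wt arrays. The groups did not overlap there, with a difference of -0.20 ± 0.103 (limma adjusted p = 0.4). The other 7 Mbp probe sets ran from -0.26 to 0.09, and 6 of them were negative. At the positive one, which read 9.19 in Gb5ko and 9.11 in Gb5wt on average, every Gb5ko array lay above every Gb5wt array, by 0.09 (95% interval -0.13 to 0.30).

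The remaining 7 structural genes ran from -0.25 to 0.04 at their brightest probe sets. Mog, a glycoprotein of the outer myelin surface, differed by -0.25 ± 0.176 and Mobp, a basic protein of compact myelin, by -0.24 ± 0.184. Mag, an adhesion protein facing the axon, differed by -0.20 ± 0.165 and Opalin, a transmembrane protein of oligodendrocytes, by -0.17 ± 0.224. Their limma adjusted p values ran from 0.529 to 0.768. The tetraspanin gene Tspan2 differed by -0.12 and Cnp, a cyclic nucleotide phosphodiesterase of non-compact myelin, also by -0.12. Only Pllp, for the tetraspan proteolipid plasmolipin, was positive, at 0.04 (95% interval -0.27 to 0.35). Pllp was negative under 4 of 16 alternative settings, though not all of the 16 can alter a difference.

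Lipid enzymes had the lowest median of the 5 roles. Ugt8a adds galactose to ceramide and so makes the main glycolipid of myelin. It read 10.56, 10.97 and 11.45 in the Gb5ko arrays, against 11.46, 11.41 and 11.67 in the Gb5wt arrays, so that only Gb5ko replicate 3 reached the wild-type range. The Ugt8a difference was -0.52 ± 0.202 (limma adjusted p = 0.3), 1.43-fold lower, and its dim second probe set gave -0.56 ± 0.309.

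Aspa cleaves N-acetylaspartate and releases acetate for lipid synthesis. It read 5.98, 6.13 and 6.51 in the Gb5ko arrays, against 6.43, 6.43 and 7.04 in the Gb5wt arrays. Gb5ko replicate 3 again lay inside the wild-type range, and the difference was -0.43 ± 0.194 (limma adjusted p = 0.355). Fa2h, which hydroxylates the fatty acids of galactolipids, read 8.62, 8.71 and 9.37 in the Gb5ko arrays, against 9.26, 9.09 and 9.43 in the Gb5wt arrays. The Fa2h difference was -0.36 ± 0.193 (limma adjusted p = 0.416), with the same 2 Gb5ko arrays below all Gb5wt arrays.

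Gal3st1 adds sulfate to galactosylceramide, the step after Ugt8a. Its levels were 5.90, 5.98 and 6.11 in the Gb5ko arrays, against 5.94, 6.13 and 6.16 in the Gb5wt arrays. The groups overlapped, and the difference was -0.08 (95% interval -0.33 to 0.17).

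Cldn11, Ugt8a and Ermn were the only members of 29 whose brightest probe set had an unadjusted p under 0.05, all lower. Over all 18193 genes 5.68% were lower at that level and 9.89% higher. Their promoter windows are shown because these genes lead the differences and varied together across arrays. Each runs from 250 bases before to 50 after the gene's start and comes from RefSeq, build GRCm38.p6. Capitals mark any match, on either strand, to ACAAAG or ACAATG, motifs of the Sox family, to GGGCGG, the Sp1 motif, or to TATAAA.
Cldn11 (chr3:31149670-31149969, plus strand): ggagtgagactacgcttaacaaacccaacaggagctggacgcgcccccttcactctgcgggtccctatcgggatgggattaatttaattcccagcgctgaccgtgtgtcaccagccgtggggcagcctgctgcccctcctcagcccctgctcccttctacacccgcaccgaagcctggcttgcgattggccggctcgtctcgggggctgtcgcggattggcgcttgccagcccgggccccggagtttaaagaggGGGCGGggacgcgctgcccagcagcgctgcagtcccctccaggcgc
Ugt8a (chr3:125938603-125938902, minus strand): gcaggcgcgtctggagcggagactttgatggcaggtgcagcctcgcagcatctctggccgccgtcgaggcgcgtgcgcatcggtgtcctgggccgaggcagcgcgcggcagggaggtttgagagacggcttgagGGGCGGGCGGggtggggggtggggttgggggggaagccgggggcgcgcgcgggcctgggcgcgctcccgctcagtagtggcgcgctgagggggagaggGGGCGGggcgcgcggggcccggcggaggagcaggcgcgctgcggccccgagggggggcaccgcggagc
Ermn (chr2:58052815-58053114, minus strand): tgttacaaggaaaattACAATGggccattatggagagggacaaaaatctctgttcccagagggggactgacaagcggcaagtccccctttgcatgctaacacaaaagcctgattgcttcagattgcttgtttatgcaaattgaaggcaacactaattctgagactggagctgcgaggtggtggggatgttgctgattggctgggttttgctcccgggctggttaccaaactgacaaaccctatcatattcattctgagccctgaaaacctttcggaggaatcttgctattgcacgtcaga
The Cldn11 window held 1 GGGCGG and the Ugt8a window 3, of which 2 overlap each other, while the Ermn window held 1 ACAATG and no GGGCGG. No match to one motif overlapped a match to another in these windows. Among 32851 windows of the same length, 35.7% held GGGCGG, 12.6% ACAATG, 18.7% ACAAAG and 13.6% TATAAA. Windows were given for 21 members, 31 windows in all, of which 41.9% held GGGCGG, 16.1% ACAATG, 32.3% ACAAAG and 3.23% TATAAA. These matches are descriptions of letters, not of binding.

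Both transcription factor genes read slightly higher in Gb5ko, and neither passed. Sox10 read 10.31, 10.02 and 10.31 in the Gb5ko arrays, against 10.03, 9.97 and 10.05 in the Gb5wt arrays. The highest Sox10 values were those of Gb5ko replicates 1 and 3, so the array lowest for most myelin genes was among the highest for Sox10. The difference was 0.19 ± 0.113 (limma adjusted p = 0.453), and the other Sox10 probe sets gave 0.15 and 0.19. Nkx6-2, a homeobox factor of the lineage, read 5.81, 5.67 and 5.69 in the Gb5ko arrays, against 5.62, 5.63 and 5.69 in the Gb5wt arrays. Its difference was 0.08 (95% interval -0.14 to 0.29). Both kept a positive sign under every alternative setting run.

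Receptor and signalling genes had a median of -0.08 over 7 genes. Lpar1, a receptor for lysophosphatidic acid, read 9.87, 9.98 and 10.22 in the Gb5ko arrays, against 10.29, 10.03 and 10.55 in the Gb5wt arrays. The groups overlapped, with a difference of -0.26 ± 0.151 (limma adjusted p = 0.45). Plekhb1, a protein with a membrane-binding pleckstrin homology domain, read 11.01, 10.79 and 11.15 in the Gb5ko arrays, against 10.97, 10.98 and 11.37 in the Gb5wt arrays. Its groups overlapped too, and the difference was -0.12 ± 0.144.

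Bcas1, which marks oligodendrocytes at the onset of myelination, read 11.18, 11.26 and 11.44 in the Gb5ko arrays, against 11.37, 11.34 and 11.47 in the Gb5wt arrays. The difference was -0.10 (95% interval -0.34 to 0.15). Ndrg1, whose human counterpart is mutated in a demyelinating neuropathy, read 10.00, 10.03 and 9.87 in the Gb5ko arrays, against 9.84, 9.85 and 9.92 in the Gb5wt arrays. Ndrg1 differed by 0.10 (95% interval -0.13 to 0.32), in the direction opposite to most structural genes.

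Ppp1r14a, an inhibitor of myosin phosphatase, read 6.16, 5.58 and 5.85 in the Gb5ko arrays, against 6.01, 4.87 and 5.85 in the Gb5wt arrays. Gb5wt replicate 5 stood far below the other arrays, and the difference was 0.29 (95% interval -0.34 to 0.91). Without Gb5wt replicate 5 it was -0.07. The orphan receptor gene Gpr37 differed by -0.08 and the transmembrane protein gene Evi2a by 0.02.

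Members with transport, chaperone and metabolic roles, most of them shared with other cell types, had a median of -0.02 over 5 genes. Gsn, for the actin-severing protein gelsolin, stood apart from the others of this role. It read 10.34, 10.53 and 10.99 in the Gb5ko arrays, against 10.96, 10.74 and 11.23 in the Gb5wt arrays. Gb5ko replicate 3 lay inside the wild-type range, as it did for Ermn and Ugt8a, and the difference was -0.35 ± 0.184 (limma adjusted p = 0.406). Of 6 Gsn probe sets 5 were negative, from -0.38 to -0.23, and the dimmest gave 0.05.

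Qdpr, which regenerates tetrahydrobiopterin, read 12.58, 12.59 and 12.64 in the Gb5ko arrays, against 12.72, 12.68 and 12.70 in the Gb5wt arrays. These groups did not overlap, but the difference was only -0.10 ± 0.0927, and the other Qdpr probe set gave 0.09. Car2, a carbonic anhydrase, read 10.68, 10.85 and 10.72 in the Gb5ko arrays, against 10.61, 10.75 and 10.96 in the Gb5wt arrays, a difference of -0.02 (95% interval -0.29 to 0.24). The small heat shock protein gene Cryab read 11.05, 11.31 and 11.18 in the Gb5ko arrays, against 11.35, 11.30 and 10.90 in the Gb5wt arrays. Cryab differed by -0.01 and the lipocalin gene Apod by 0.00, with overlapping groups in both. Cryab and Mobp are the measured members on chromosome 9, which also carries Gnb5.

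**Figure D2:**
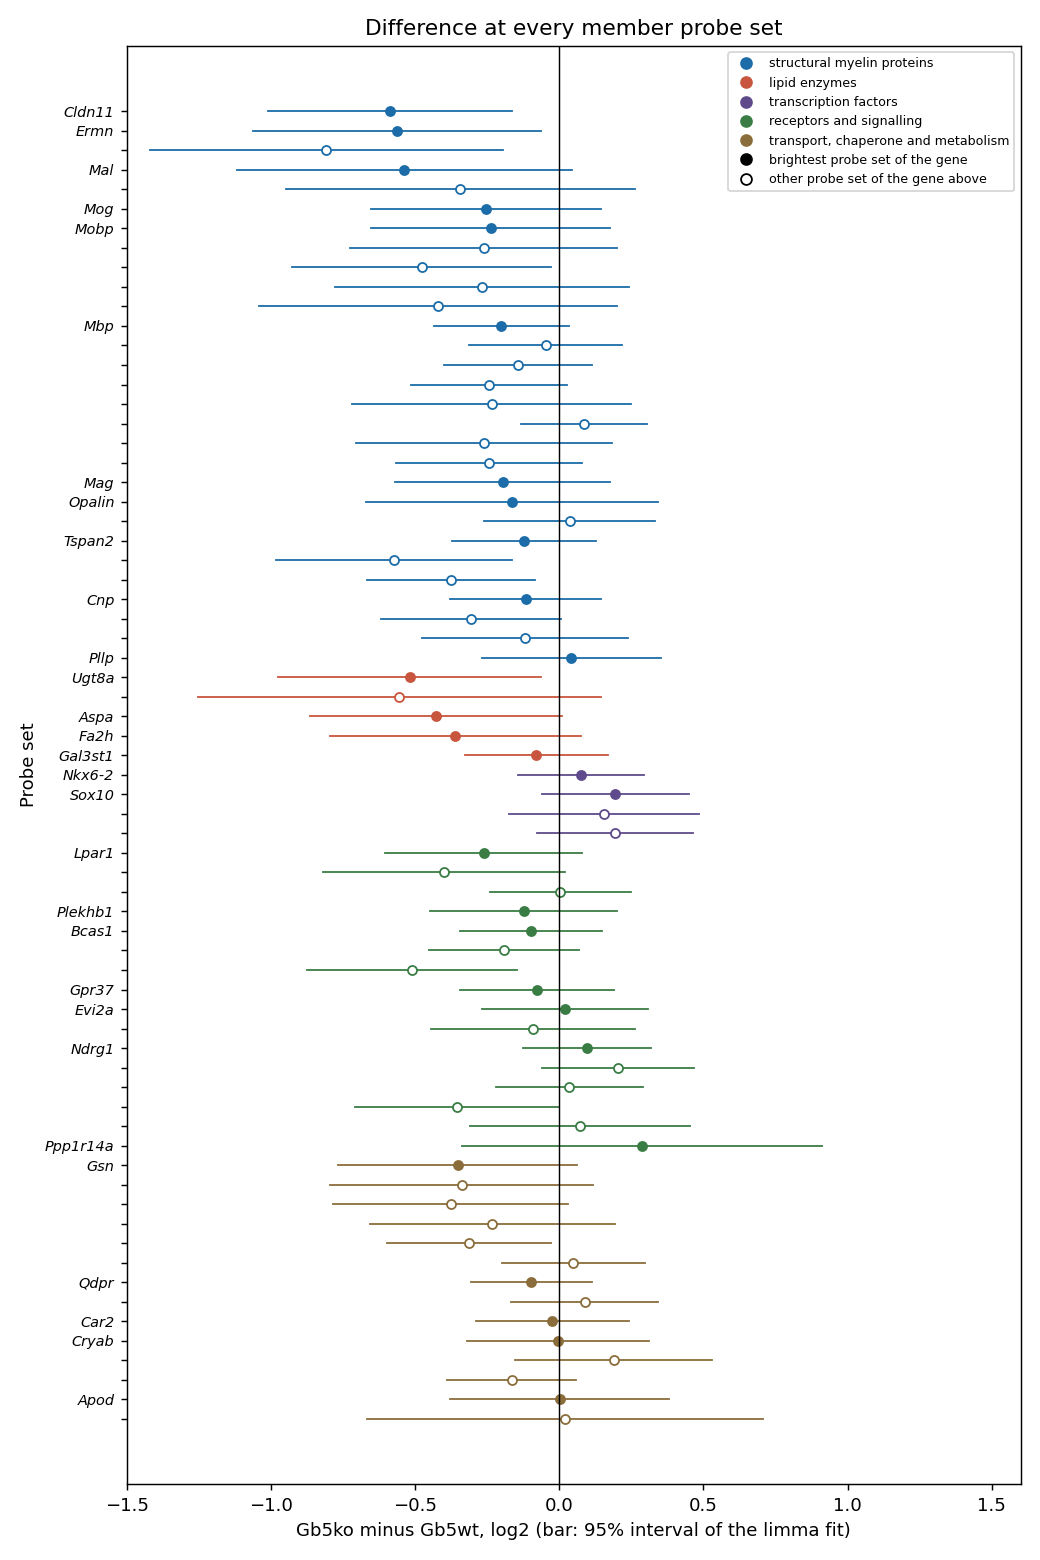
Difference at each of the 68 member probe sets (horizontal axis, Gb5ko minus Gb5wt, log2) with the 95% interval of the limma fit, by gene and coloured by role. Filled points are the brightest probe set of a gene and open points its other probe sets, and 49 of the 68 points lie below 0.

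Probe sets of 1 gene did not always give the same size of difference. Of 17 members with several probe sets, 7 were negative at all of them (Bcas1, Cnp, Ermn, Mal, Mobp, Tspan2 and Ugt8a), 2 were positive at all (Apod and Sox10) and 8 had both signs (Cryab, Evi2a, Gsn, Lpar1, Mbp, Ndrg1, Opalin and Qdpr). In 12 of the 17 the brightest probe set did not have the smallest p.

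Tspan2 showed the widest contrast among structural genes. Its brightest probe set, at 9.27 in Gb5ko and 9.39 in Gb5wt on average, differed by -0.12, whereas the others differed by -0.57 ± 0.181 and -0.38 ± 0.129 (limma adjusted p = 0.254 and 0.269) and their groups did not overlap. The first of these read 6.93, 7.44 and 7.53 in the Gb5ko arrays, against 7.69, 7.79 and 8.15 in the Gb5wt arrays. Bcas1 behaved alike, with -0.10 at the brightest probe set and -0.51 ± 0.162 (limma adjusted p = 0.255) at the dimmest, where every Gb5ko array lay below every Gb5wt array. The 5 Mobp probe sets ran from -0.48 to -0.24 and the 3 Cnp probe sets from -0.31 to -0.12.

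Other genes with several probe sets also spread, without passing the test at any of them. Probe sets of Ndrg1 gave 0.10, 0.20, 0.03, -0.35 and 0.07 from the brightest to the dimmest by mean level, and every Gb5ko array lay above every Gb5wt array at the second. Lpar1 gave -0.26, -0.40 and 0.00, Cryab -0.01, 0.19 and -0.17, Evi2a 0.02 and -0.09, Opalin -0.17 and 0.04, and Apod 0.00 and 0.02. Which transcript ends these probe sets read was not examined.

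Levels of structural and lipid genes varied together between arrays of the same group. The median within-group SD was 0.205 over the 29 members, 0.278 over structural genes and 0.314 over lipid enzymes, against 0.14 over all 18193 genes and 0.12 over the 9096 genes above the median level. Of the 29 members 18 exceeded the median SD of all genes and 22 that of the genes above the median level. A median is exceeded by as many of its own genes as fall below it. The 2 transcription factor genes had a median within-group SD of 0.0912.

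The order of arrays was nearly the same for each structural and lipid gene. Within Gb5ko, replicate 3 was the highest in 14 of 15 genes and replicate 1 the lowest in 14, against 26.5% and 31.3% of all genes. Within Gb5wt, replicate 6 was the highest in 15 of 15 and replicate 5 the lowest in 11, against 29.3% and 30.5% of all genes. Pllp was the exception in Gb5ko, with replicate 1 the highest. As a median over the structural genes, levels lay -0.32, -0.21 and 0.17 from the mean of the 6 arrays in the Gb5ko arrays and 0.07, -0.02 and 0.37 from it in the Gb5wt arrays. For lipid enzymes the values were -0.45, -0.29 and 0.14 in the Gb5ko arrays and 0.09, 0.05 and 0.39 in the Gb5wt arrays. Gb5ko replicate 3 thus lay above Gb5wt replicates 4 and 5 by both medians, while over all genes the medians stayed between -0.02 and 0.05.

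**Figure D3:**
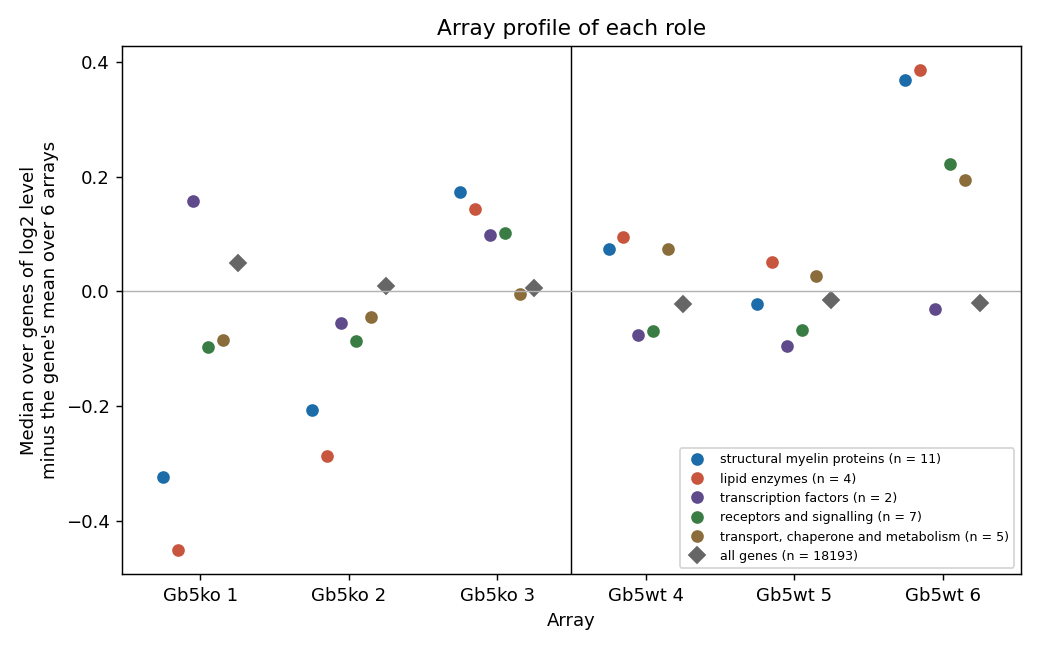
Median over the genes of each role of the log2 level minus the gene's mean over 6 arrays (vertical axis), for each array (horizontal axis, Gb5ko left of Gb5wt). Structural and lipid genes spread from -0.45 in Gb5ko replicate 1 to 0.39 in Gb5wt replicate 6, and the median of all genes stays near 0.

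After each group's mean was removed, the mean pairwise correlation over the 6 arrays, which leave 4 free deviations, was 0.76 among the 15 structural and lipid genes. It was 0.22 among the other 14 members and 0.01 over all 18193 genes. All genes share the same arrays and normalization, so these values only describe them. Each gene was also set against the mean deviation of the other structural and lipid genes, and 10 of the 15 followed it with an r of at least 0.9. The share of all genes at that r was not computed. Of the 14 other members, Gsn, Bcas1 and Lpar1 followed the same course (r = 0.99, 0.99 and 0.92). Gpr37 and Evi2a did so less closely (r = 0.82 and 0.80). Plekhb1, Qdpr, Apod, Car2 and Ppp1r14a ran from 0.73 down to 0.21. Sox10, Nkx6-2, Ndrg1 and Cryab did not follow it (r = 0.29, -0.24, -0.43 and -0.36).

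Other oligodendrocyte genes, a list of genes used by the same cells outside the 31, were read in the same way. Of 29 listed, 27 were measured, 18 negative and 9 positive, with a median of -0.09, and 0 passed in limma over all probe sets. At an unadjusted p under 0.05, 3 of 27 were lower and 0 higher, as were 3 and 0 of the 29 members, where 5.68% and 9.89% of all genes were. The 3 were Tmem88b (-0.60 ± 0.241), Sgk2 (-0.25 ± 0.105) and the septin-binding scaffold gene Anln (-0.26 ± 0.112), with limma adjusted p values of 0.313, 0.326 and 0.333. The regulators Olig1, Olig2 and Myrf, which act in the lineage with Sox10, differed by -0.01, 0.21 and -0.09. The mean pairwise correlation of deviations in this list was 0.14. With the mean deviation of the structural and lipid genes, r over the 27 ran from -0.64 to 0.96, with a median of 0.55. It was at least 0.8 in 11 of 27. S1pr5 was the highest at 0.96, and 13 of the 15 structural and lipid genes themselves reached 0.8. The share of all genes at that r was not computed.

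Enzymes that make or break down sphingolipids upstream and beside Ugt8a did not share one direction. Of 20 measured, 10 were negative, 9 positive and 1 (Ugcg) at 0, with a median of -0.04 and 0 passing in limma over all probe sets, 1 lower and 1 higher at an unadjusted p under 0.05 (all genes 5.68% and 9.89%). Sgms2, a sphingomyelin synthase, differed by -0.50 ± 0.104 (limma adjusted p = 0.187). Sptlc2, a subunit of the first enzyme of the pathway, differed by 0.41 ± 0.103 (limma adjusted p = 0.213). The dihydroceramide desaturase gene Degs1 differed by -0.22 ± 0.108 and Cers2, whose product makes the very long chain ceramides of myelin, by -0.24 ± 0.136. Precursor markers were split as well, with 5 of 9 negative and a median of -0.18. Of these the matrix gene Tnr (-0.44) and Bmp4 (-0.41) were lower and C1ql1 (0.49) and Cspg4 (0.25) higher at an unadjusted p under 0.05, 2 of 9 in each direction, with limma adjusted p values from 0.234 to 0.339.

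**Figure D4:**
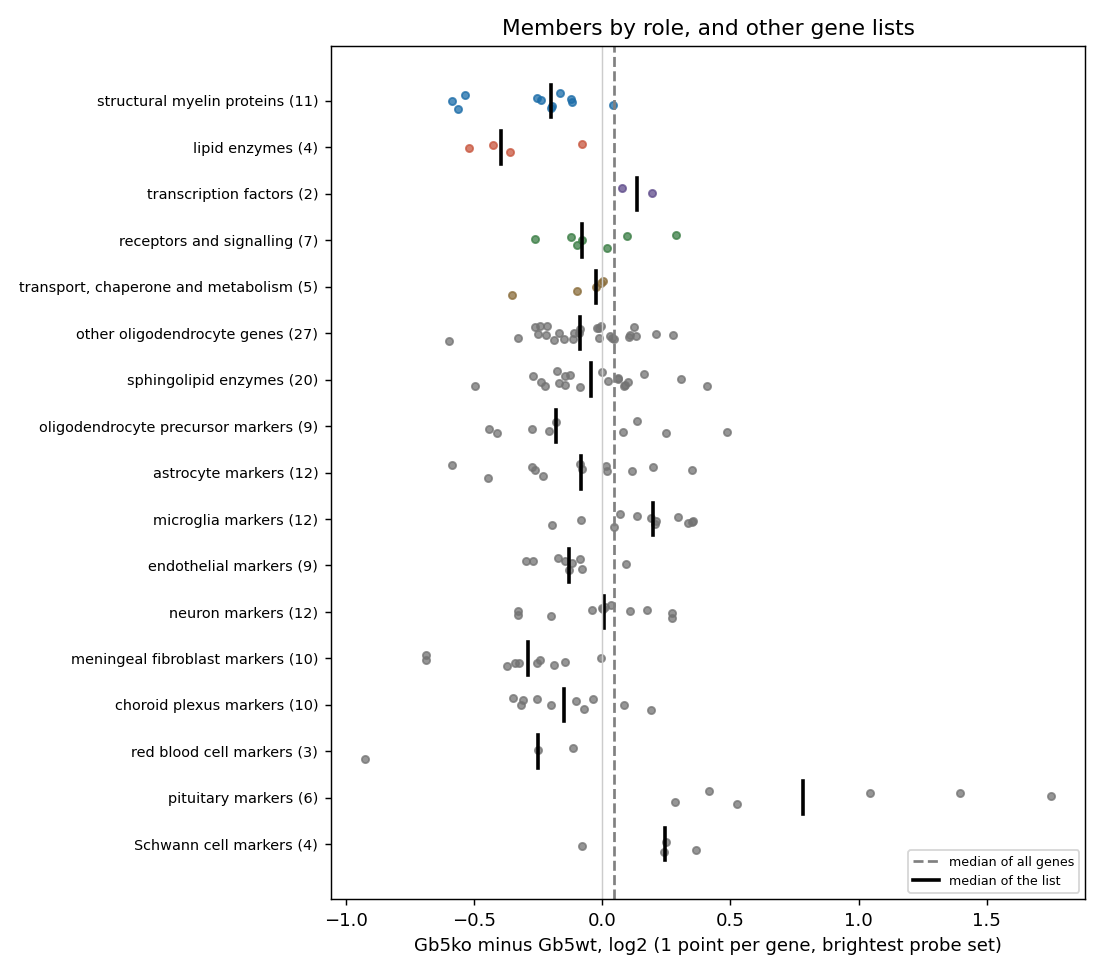
Difference of each gene at its brightest probe set (horizontal axis, Gb5ko minus Gb5wt, log2) for the 5 roles of the members and 12 other lists, with the list median as a black bar and the median of all genes, 0.05, as a dashed line. Medians of 13 of the 17 lists lie left of it, among them structural genes (-0.20), lipid enzymes (-0.39), meningeal fibroblast (-0.29), red blood cell (-0.25) and precursor (-0.18) markers.

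Several lists of markers of other cells also had medians away from that of all genes, and their part in the myelin values was not tested. Of 78 genes in 9 such marker lists, pituitary and Schwann cell markers included, 0 passed in limma over all probe sets, and 15 (19.2%) were lower and 6 (7.69%) higher at an unadjusted p under 0.05, against 5.68% and 9.89% of all genes. Meningeal fibroblasts also express Gsn and Apod, and their markers had 10 of 10 negative with a median of -0.29. The mean level of these markers ran from 7.86 to 7.91 in Gb5ko and from 8.16 to 8.25 in Gb5wt. The choroid plexus also expresses Car2, and its markers had 8 of 10 negative with a median of -0.15, with mean levels of 6.53 to 6.88 in Gb5ko and 6.68 to 7.01 in Gb5wt. The 3 measured red blood cell markers were negative with a median of -0.25. Of 12 astrocyte markers 7 were negative (median -0.08), of 9 endothelial markers 8 (median -0.13), of 12 neuron markers 5 (median 0.01) and of 12 microglia markers 2 (median 0.20). At an unadjusted p under 0.05, 5 fibroblast markers were lower and 0 higher. By the same measure 4 astrocyte markers were lower and 1 higher, and 0 microglia markers were lower and 4 higher. Schwann cell markers, which would mark myelin of peripheral nerve, had 1 of 4 negative and a median of 0.25.

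Pituitary markers tracked some of the same arrays. Gh read 5.08, 4.67 and 10.62 in the Gb5ko arrays, against 4.70, 4.20 and 6.21 in the Gb5wt arrays. The mean level of the 6 measured pituitary markers ran from 4.54 to 7.46 in Gb5ko and from 4.43 to 5.35 in Gb5wt. The highest array for Gh in each group was Gb5ko replicate 3 and Gb5wt replicate 6. These were also the highest of their group for 14 and 15 of the 15 structural and lipid genes, against 26.5% and 29.3% of all genes. Without these 2 arrays the median difference was -0.24 over structural genes and -0.44 over lipid enzymes, and 16 of 68 member probe sets were lower at an unadjusted p under 0.05, against 4.8% of all. Without Gb5ko replicate 2 and Gb5wt replicate 4, the arrays of highest Eif2s3y, the medians over structural genes and lipid enzymes were -0.21 and -0.38, and 2 of 68 were lower at that level, against 4.77% of all. These 2 fits were added once the values were known, and 0 member probe sets passed the adjusted threshold in either.

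With 1 array left out, the median over structural genes ran from -0.34 without Gb5ko replicate 3 to -0.11 without Gb5wt replicate 6, and it was -0.13 without Gb5ko replicate 1. Over lipid enzymes it ran from -0.59 without Gb5ko replicate 3 to -0.25 without Gb5wt replicate 6, and it was -0.26 without Gb5ko replicate 1. Over all 29 members it ran from -0.18 without Gb5ko replicate 3 to -0.05 without Gb5ko replicate 1, and it was -0.07 without Gb5wt replicate 6. All of these medians stayed negative, while the median over all genes lay between 0.03 and 0.05 in the same fits.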

How the data were processed

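The deposited values are log2 expression, 1 for each array and probe set, made with RMA and Partek (no version given) per the submitters' processing notes; the arrays are Affymetrix per the labels. RMA corrects the background, brings arrays to a common distribution and summarizes probes on the log2 scale, which compresses differences near the background. No detection calls were at hand, so none could be called absent. The 64 control probe sets were left out of 45101, and 45037 were tested with no filter on dim signal. Gb5ko minus Gb5wt was fitted over all of them in limma 3.58.1 (lmFit, eBayes, R 4.3.3), two-sided, with Benjamini-Hochberg adjustment and a threshold of 0.05. The fit was also run on simulated data with independent probe sets, which does not cover genes that vary together. Precision is limited by having 6 arrays, with a median SE of 0.123 for a difference. Genes came from the platform annotation (34945 probe sets with 1 gene). A gene's value is that of its brightest 1-gene probe set by mean over the 6 arrays, unless another is named. No test was made over a list. Values of every array are given for up to 4 members of each role with the smallest p and for Mbp, Plekhb1 and Sox10, and up to 3 genes of the other oligodendrocyte, sphingolipid and precursor lists are named by p. Olig1, Olig2, Myrf, S1pr5, Ugcg, Cers2 and Cspg4 were added after their values were seen. Members and lists were chosen with earlier results of these data known. Alternatives covered normalization, dim filters, eBayes settings, array weights, the probe set per gene and leaving out each array.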

Additional observations from a re-analysis of the deposited data

How the results depend on the processing

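No member probe set passed the adjusted threshold of 0.05 in limma under any alternative run, at an adjusted p under 0.1, or with 1 array left out. The lowest adjusted p of a member's brightest probe set under any alternative was 0.163. The count lower at an unadjusted p under 0.05, 10 over all arrays, ran from 3 to 23 with 1 array left out. In those fits 4.33% to 6.65% of all probe sets were lower. The count was 0 at an unadjusted p under 0.01, where the share of all probe sets was not computed. Without the arrays of highest Gh it was 16, and without those of highest Eif2s3y 2, both chosen after the data were seen. The cause was not tested. The other alternatives gave 8 to 15. The share of all probe sets was 6.02% to 9.29% in these fits, and was not computed for trend and robust eBayes, which gave 15. The dim filters left 64 and 55 member probe sets, with 9 lower in each, against 7.62% and 9.29% of all. Medians over all members, structural genes and lipid enzymes stayed negative under every setting run, but their size moved. The member median went from -0.12 over all arrays to -0.05 without Gb5ko replicate 1. The member median was -0.24 when each gene was read by its most variable probe set. Of 462 values of single members under alternatives, 429 kept their sign and 33, from 11 genes, did not. Part of the 429 could not change. Dim filters and eBayes settings leave a difference as it is. The choice of probe set does so too for the 12 members with 1 probe set. The median over all genes was 0.03 after quantile normalization and 0.04 after centring. Replicates are numbered 1 to 3 in Gb5ko and 4 to 6 in Gb5wt, and the labels match no Gb5ko animal with a Gb5wt animal. The cohorts were littermates per the labels, so a pairing by litter may exist, but it could not be used. For dim probe sets, background could not be told from signal without detection calls.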
